A study of Homo sapiens with 8 samples.

Results

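The RNA of 10 genes was followed through 8 RNA-seq libraries of CTCF AID2 SEM cells: the immediate early genes FOS, FOSB, JUN, JUNB, JUND, EGR1, IER2 and KLF6, and the MAP kinase phosphatases DUSP1 and DUSP6. They were found by their symbols among 60754 genes and spike-in sequences, each symbol matched 1 entry, and all 10 were among the 15614 genes tested. SEM is a human KMT2A-rearranged B-cell acute lymphoblastic leukemia line. In all cells used here both alleles of CTCF, the chromatin insulator gene, carried a miniAID-mClover3 tag, and a lentivirus supplied OsTIR1(F74G) joined by P2A to a Zeocin resistance gene, so that the ligand 5-Ph-IAA marks the tagged protein for destruction. The lines C17.2 and C3.2 are each 1 clone, and each gave 2 libraries of untreated parental cells and 2 of resistant cells. Resistant cells had been kept for 36 days in 1 μM 5-Ph-IAA with 100 μg/ml Zeocin, and both agents were then withdrawn for 48 h. The authors found a nonsense mutation in CTCF that removes the tag with the end of the protein in resistant cells of the first clone, and a missense mutation within the tag in those of the other. By immunoblot they also saw full-length tagged CTCF return in resistant C17.2 cells after the washout, beside the truncated form. Each clone was thus compared with its own parent, and the resistant cells differed from it by the selection, the time in culture, the washout and these mutations together.

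Immediate early genes are switched on within minutes of a growth factor, antigen receptor or stress signal, by transcription factors that are already present in the cell and are activated by ERK and related kinases. FOS and JUN proteins pair to form AP-1, EGR1 is a zinc finger activator, and most of their mRNAs are short lived. DUSP1 and DUSP6 are phosphatases that remove phosphate from MAP kinases, so their induction closes a negative feedback loop, with DUSP6 acting mainly on ERK in the cytoplasm and DUSP1 in the nucleus with a preference for p38 and JNK.

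The sequences before the start sites of EGR1, FOS, FOSB and DUSP1 are shown because these 4 genes were the ones higher in resistant C17.2 cells. They are the 250 bases upstream of the RefSeq start on GRCh38.p14, for EGR1 at chr5:138465229-138465478 on the forward strand, for FOS at chr14:75278578-75278827 on the forward strand, for FOSB at chr19:45467746-45467995 on the forward strand and for DUSP1 at chr5:172771196-172771445 on the reverse strand, each written along the gene. Capitals mark CArG boxes (the element bound by SRF), TGACG (the core of the element bound by CREB and ATF proteins) and GCGNGGGCG (the element bound by EGR proteins), on either strand.
EGR1: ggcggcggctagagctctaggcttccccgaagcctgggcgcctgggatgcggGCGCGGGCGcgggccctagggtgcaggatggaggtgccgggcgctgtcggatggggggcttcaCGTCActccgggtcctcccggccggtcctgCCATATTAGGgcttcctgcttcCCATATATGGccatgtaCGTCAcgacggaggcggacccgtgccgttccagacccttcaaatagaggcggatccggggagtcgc
FOS: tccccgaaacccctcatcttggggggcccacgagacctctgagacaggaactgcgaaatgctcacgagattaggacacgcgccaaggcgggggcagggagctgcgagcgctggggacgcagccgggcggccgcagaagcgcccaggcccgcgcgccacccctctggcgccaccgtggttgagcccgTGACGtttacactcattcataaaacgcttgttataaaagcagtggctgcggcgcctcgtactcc
FOSB: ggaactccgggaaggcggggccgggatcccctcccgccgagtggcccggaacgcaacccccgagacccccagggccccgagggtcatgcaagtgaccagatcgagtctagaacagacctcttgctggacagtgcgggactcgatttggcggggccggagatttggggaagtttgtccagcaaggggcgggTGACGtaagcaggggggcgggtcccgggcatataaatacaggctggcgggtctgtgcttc
DUSP1: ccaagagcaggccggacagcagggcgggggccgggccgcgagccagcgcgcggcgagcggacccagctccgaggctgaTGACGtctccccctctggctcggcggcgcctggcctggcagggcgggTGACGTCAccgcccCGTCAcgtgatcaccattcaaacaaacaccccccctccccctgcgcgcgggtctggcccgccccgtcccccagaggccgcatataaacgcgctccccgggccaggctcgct
The EGR1 sequence held CArG boxes beginning at -105 and -83 from the start, TGACG on the opposite strand at -135 and -66, and an EGR element at -198. TGACG stood at -64 in FOS and at -60 in FOSB, on the strand of the gene in both. In DUSP1 it stood at -172 and -125 on the strand of the gene and at -122 and -111 on the opposite strand, and the matches at -125 and -122 overlap in 1 palindrome. Over the upstream sequences of all 10 genes, TGACG was found in 8 of 10, against 21.2% of the 35116 RefSeq windows of the same length. The CArG box was found in 1 of 10 (1.16% of all windows) and the EGR element in 2 of 10, EGR1 and KLF6 (8.41% of all windows). The AP-1 element TGANTCA was found in none of the 10 (6.57% of all windows). The windows of all genes were not matched to these 10 in base composition, and enrichment was not tested. These matches are letters in a short window, and binding was not measured here. Elements further upstream were not searched, so a gene without a match, such as FOS for the CArG box, may hold one outside the window.

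Levels are given as scaled TPM, the deposited TPM (a length-corrected share of the transcripts of a library) divided by a library factor between 0.893 and 1.16. Differences are in log2(scaled TPM + 1), which understates the change of low genes. Protein-coding genes took between 36.0% and 43.3% of TPM, and TPM keep no depth, so the counting error of a library is unknown. Tests were by limma over all 15614 genes with Benjamini-Hochberg adjustment, two-sided, and adjusted p under 0.05 is called. Nothing in the labels says that the 2 libraries of a group came from separate cultures, so the p-values measure the spread between these libraries, which may be technical. An exact permutation test of 2 libraries against 2 could not go below p = 0.333 and was not used. The cells had B-cell precursor RNA, with 8 of 10 markers at 1 TPM or more in some library (DNTT and MME stayed under 0.3), and CD3D, CD8A, FCGR3A, EPCAM, COL1A2 and DCN were at 0 in all libraries. Of the markers of other cells, 1 of 6 for T cells, 2 of 6 for myeloid cells, 0 of 4 for erythroid cells, 0 of 4 for epithelial cells and 1 of 3 for fibroblasts reached 1 TPM. These were TRAC, the T-cell receptor alpha constant gene (34.1 to 53.4 scaled TPM), CSF1R (0.796 to 2.48), LYZ (0.457 to 1.94) and COL1A1 (2.51 to 6.64). The summed T-cell markers, nearly all TRAC, were 45.8 to 47.1 in parental and 34.1 to 34.5 in resistant C17.2 cells, and 52.9 to 53.5 and 45.5 to 45.6 in C3.2. The summed fibroblast markers, COL1A1 alone, were 2.66 to 2.83 in parental and 5.62 to 6.64 in resistant C17.2 cells, and 2.51 to 3.25 and 3.44 to 4.08 in C3.2, whereas the myeloid sums of the groups overlapped in C17.2 (2.19 to 3.09 and 2.02 to 3.80) and lay apart in C3.2 (2.53 to 3.07 and 3.78 to 4.05). The summed B-cell precursor markers were 845 to 845 scaled TPM in parental and 673 to 698 in resistant C17.2 cells, and 918 to 948 in parental and 758 to 759 in resistant C3.2 cells. The B-cell precursor and T-cell sums were lower and the COL1A1 level higher in resistant cells of both clones, and the part of these markers in the results below was not tested. In bulk RNA, fewer cells with a transcript and less RNA per cell cannot be told apart. RNA of CTCF itself was higher by 0.44 in resistant C17.2 cells (standard error 0.0415, adjusted p = 0.000795 by limma) and by 0.34 in resistant C3.2 cells (standard error 0.0415, adjusted p = 0.0068 by limma). The C3.2 call of CTCF was lost under 2 of 16 alternative settings.

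**Figure D1:**
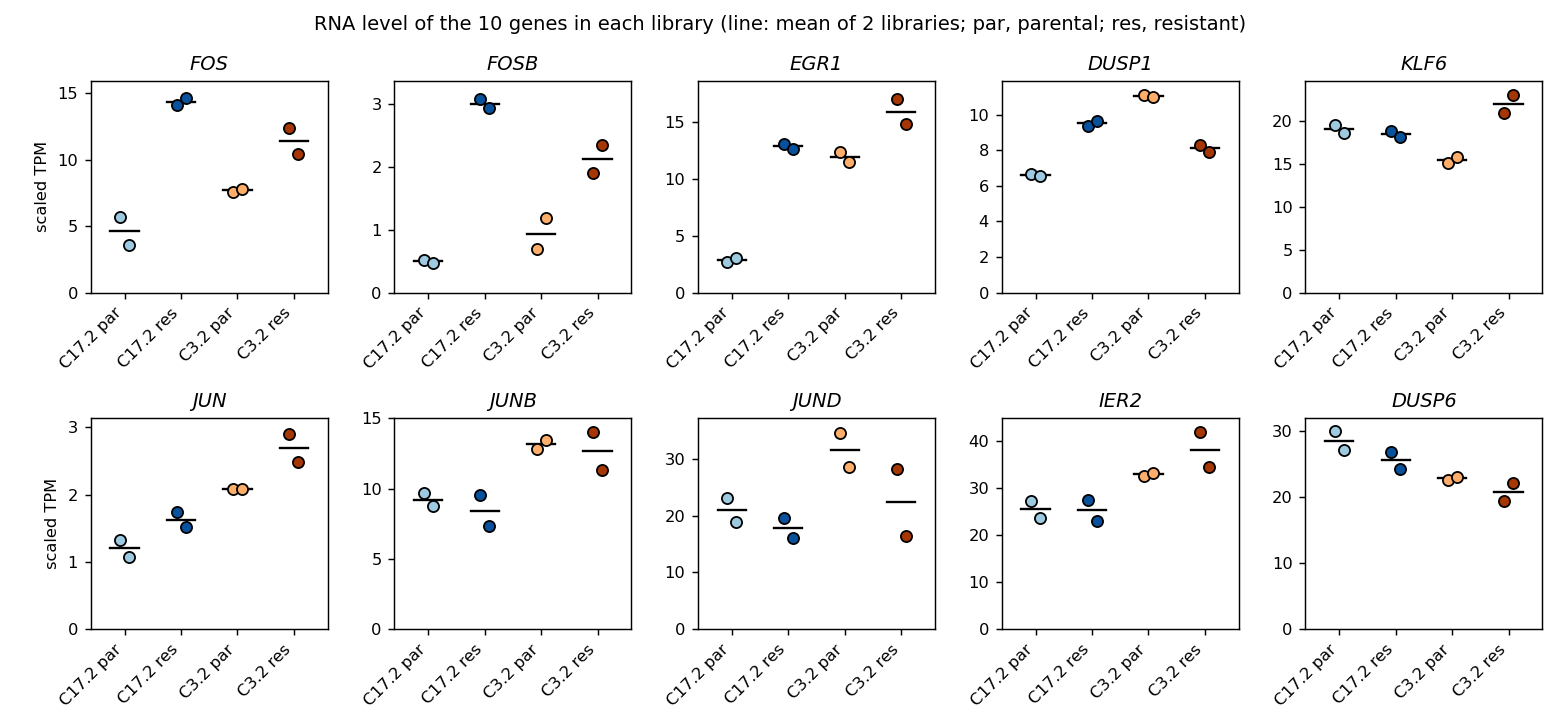
Each panel plots 1 gene, with scaled TPM on the vertical axis from 0 and the 4 groups on the horizontal axis (clone, then par, parental; res, resistant). Points are libraries and lines are means of 2 libraries. FOS, FOSB, EGR1 and DUSP1 were called higher in resistant C17.2 cells, and DUSP1 moved the other way in C3.2. In C17.2 the 2 groups did not overlap for these 4 genes, JUN and DUSP6, nor for 66.0% of all tested genes.

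In parental C17.2 cells the order of levels ran from DUSP6 (28.6 ± 2.10 scaled TPM, SD, n = 2) and IER2 (25.5 ± 2.55), whose libraries overlapped, through JUND (20.9 ± 2.89) and KLF6 (19.1 ± 0.770), which overlapped as well, down to JUN (1.21 ± 0.177) and FOSB (0.495 ± 0.0272). In parental C3.2 cells IER2 (33.0 ± 0.350) and JUND (31.6 ± 4.16) led and overlapped, and JUN (2.09 ± 0.00742) and FOSB (0.938 ± 0.345) were again lowest. Parental cells of both clones thus held much more RNA of JUNB and JUND than of JUN, and more of FOS than of FOSB. In resistant C17.2 cells FOS (14.3 ± 0.347) and EGR1 (12.9 ± 0.423) stood above DUSP1 and JUNB, whereas in the parent they stood below both. FOSB reached 1 TPM in 5 libraries, the 4 resistant libraries and 1 parental library of C3.2, and so entered the test through the groups in which it was high, whereas each of the other 9 genes reached it in all 8 libraries.

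Resistant C17.2 cells had more RNA of FOS, FOSB, EGR1 and DUSP1 than their parent. Of the 10 genes, 4 were called higher and 0 lower, against 27.3% of all tested genes called in this contrast (13.4% higher and 13.9% lower). The 6 others were not called, and at an unadjusted p under 0.05 the count was also 4. The median difference was 0.12 over the 10 genes and 0.00 over all tested genes. Of all calls 49.1% were higher, and 75.1% with TPM as deposited, and the 4 calls among the 10 genes were the same 4 under both. The libraries of the 2 groups did not overlap for 6 of the 10 genes, 5 higher and 1 lower, against 66.0% of all tested genes. Resistant C3.2 cells had 3 genes called higher, FOSB, EGR1 and KLF6, and 1 lower, DUSP1, against 11.4% of all tested genes called (4.46% higher and 6.90% lower). The libraries of the 2 groups did not overlap for 9 of the 10 genes, 6 higher and 3 lower, against 55.8% of all tested genes. The median difference was 0.23 over the 10 genes and 0.00 over all. Of all calls 39.3% were higher, against 57.8% with TPM as deposited and 70.1% with TPM rescaled over protein-coding genes.

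**Figure D2:**
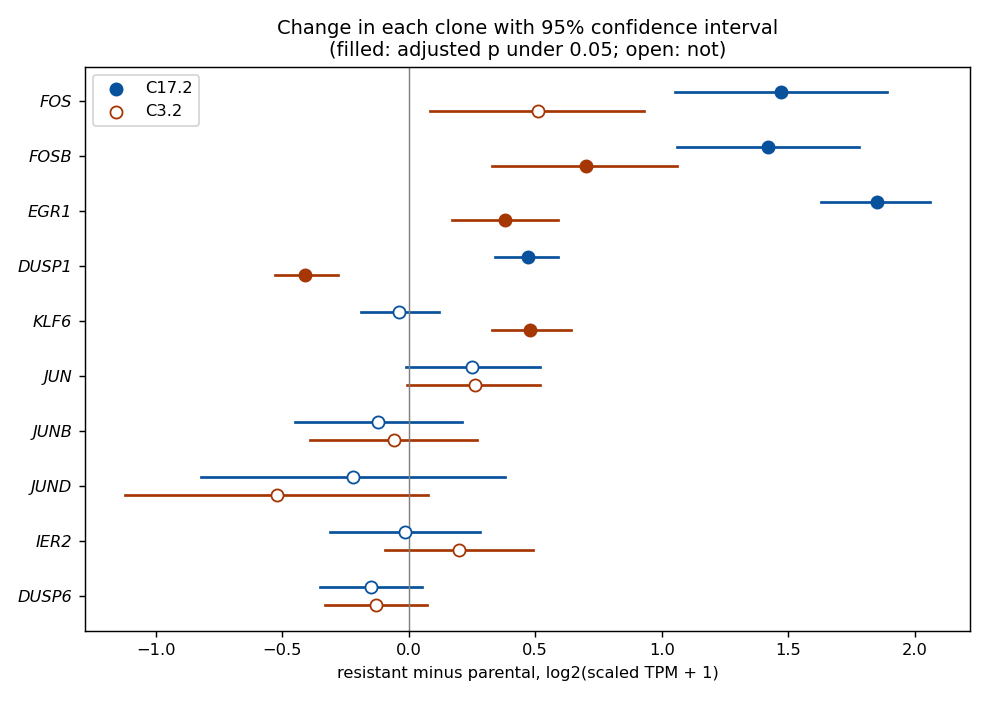
Points are the differences between resistant and parental cells in log2(scaled TPM + 1) on the horizontal axis for each of the 10 genes, with 95% confidence intervals as lines, in blue for C17.2 and in brown for C3.2. Filled points have an adjusted p under 0.05. EGR1 shows the widest gap between the clones (1.85 against 0.38), and the 2 points of DUSP1 lie on opposite sides of 0 (0.47 and -0.41).

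FOS (ENSG00000170345.10, chr14:75278826-75282230, forward strand, 4 exons on GRCh38) encodes a subunit of AP-1. It was at 5.68 and 3.56 scaled TPM in parental C17.2 cells and at 14.1 and 14.6 in resistant ones, and at 7.57 and 7.81 in parental C3.2 cells and 12.4 and 10.4 in resistant ones. Both resistant libraries were above both parental libraries in each clone, and the 2 parental C17.2 libraries were the lowest of the 8. The mean rose 3.10-fold in C17.2, a difference of 1.47 (standard error 0.175, adjusted p = 0.00194 by limma). In C3.2 the mean was 1.48-fold that of the parent, a difference of 0.51 that was not called (95% confidence interval 0.085 to 0.93 before adjustment, adjusted p = 0.121 by limma). The changes of the 2 clones differed by 0.96, which was not called (adjusted p = 0.0615 by limma), although without parental replicate 1 of C17.2 the difference was 1.24 (adjusted p = 0.029 by limma). Without parental replicate 2 of C17.2 it was 0.69 (adjusted p = 0.0833 by limma), and without any 1 of the other 6 libraries 0.84 to 1.09, again not called (adjusted p up to 0.177).

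FOSB (ENSG00000125740.14, chr19:45467995-45475179, forward strand, 4 exons) encodes a close relative of FOS. It was at 0.514 and 0.476 scaled TPM in parental and 3.07 and 2.93 in resistant C17.2 cells, and at 0.694 and 1.18 in parental and 1.90 and 2.35 in resistant C3.2 cells. The groups did not overlap in either clone. FOSB rose by 1.42 in C17.2 (standard error 0.151, adjusted p = 0.00128 by limma) and by 0.70 in C3.2 (standard error 0.151, adjusted p = 0.0347 by limma), and the difference between these changes, 0.72, was not called (adjusted p = 0.0864). The C3.2 call was lost with no filter on level (adjusted p = 0.0829 by limma), with the clone fitted alone (0.151), and without any single library other than parental replicate 2 of that clone (0.052 to 0.14). FOSB lies inside the span of ERCC1, a DNA repair gene on the opposite strand, and whether reads were counted by strand is not given in the sources used here. ERCC1 went from 52.3 and 50.2 scaled TPM to 43.5 and 43.0 in C17.2, opposite to FOSB, and was at 37.9 and 39.9 in parental and 39.6 and 41.6 in resistant C3.2 cells.

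JUN, JUNB and JUND, the single-exon genes for the partners of FOS proteins, were called in neither clone. JUN (chr1:58776845-58784048, reverse strand) was at 1.33 and 1.08 scaled TPM in parental and 1.74 and 1.52 in resistant C17.2 cells, and at 2.09 and 2.08 in parental and 2.90 and 2.49 in resistant C3.2 cells. Its groups did not overlap in either clone, but its differences of 0.25 (95% confidence interval -0.011 to 0.52, adjusted p = 0.141 by limma) and 0.26 (95% confidence interval -0.0068 to 0.52, adjusted p = 0.191 by limma) were not called. JUNB (chr19:12791486-12793315, forward strand) was at 9.72 and 8.74 in parental and 9.53 and 7.37 in resistant C17.2 cells, and at 12.8 and 13.5 in parental and 14.0 and 11.3 in resistant C3.2 cells. These JUNB groups overlapped in both clones, with 95% confidence intervals of -0.45 to 0.21 and -0.39 to 0.27 for the differences. JUNB lies within HOOK2 on the opposite strand, which was at 9.40 ± 0.983 in parental and 9.05 ± 0.994 in resistant C17.2 cells and 8.71 ± 0.155 and 8.88 ± 0.185 in C3.2 (scaled TPM, SD, n = 2).

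JUND (chr19:18279694-18281622, reverse strand) was at 23.0 and 18.9 scaled TPM in parental and 19.6 and 16.0 in resistant C17.2 cells, and at 34.5 and 28.6 in parental and 28.2 and 16.4 in resistant C3.2 cells. It had the widest spread of the 10 genes, with a standard error of 0.249, and its differences of -0.22 (95% confidence interval -0.82 to 0.38, adjusted p = 0.554 by limma) and -0.52 (95% confidence interval -1.12 to 0.076, adjusted p = 0.233 by limma) were not called. Without resistant replicate 1 of C3.2 the second difference was -0.90 (adjusted p = 0.0419 by limma), and without resistant replicate 2 it was -0.15 (adjusted p = 0.686 by limma). JUND has the highest G and C content of the 10 genes (69.9% of its exonic bases), and in each of the 4 groups replicate 2 was below replicate 1, by 0.27, 0.28, 0.26 and 0.74 in log2(scaled TPM + 1). For the 1435 protein-coding genes with at least 60% G and C the median difference between the same libraries was between -0.10 and 0.017.

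**Figure D3:**
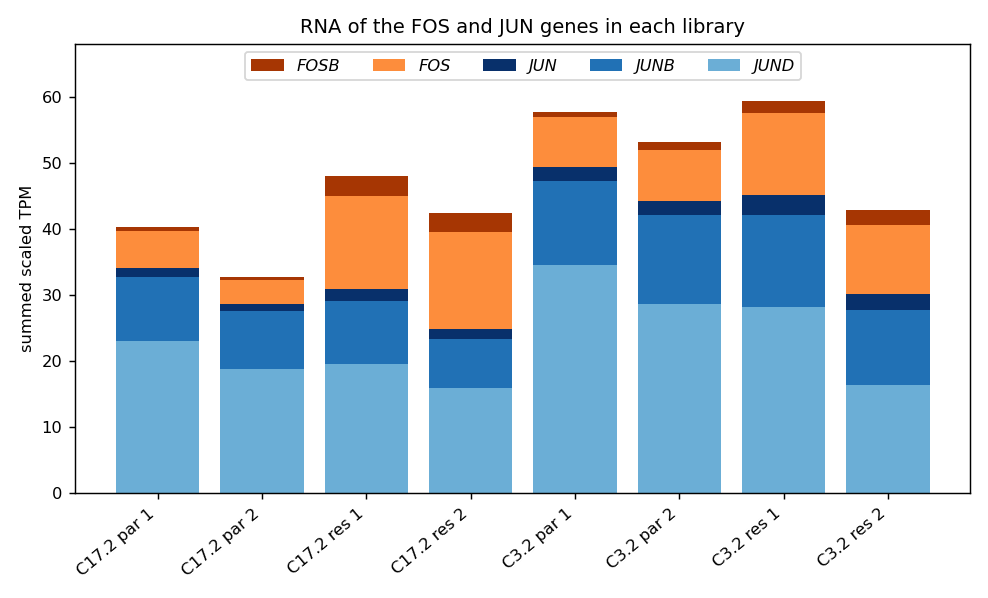
Bars stack the scaled TPM of 5 FOS and JUN genes in each of the 8 libraries, with JUND, JUNB and JUN in blue and FOS and FOSB in orange and brown. FOSL2 is not included. The FOS and FOSB part of the bar is between 35.7% and 41.2% in resistant C17.2 libraries, against 12.3% to 15.4% in their parent.

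Among these 5 genes the balance between FOS with FOSB and the JUN genes therefore differed between the states. FOSL2, a further FOS-related gene, is left out of these shares. It was at 10.7 to 13.9 scaled TPM over the 8 libraries, so the shares are not those of all FOS-related RNA. FOS and FOSB together made up 15.4% and 12.3% of the summed scaled TPM in parental C17.2 libraries and 35.7% and 41.2% in resistant ones. In C3.2 the shares were 14.3% and 16.9% in parental and 24.1% and 29.6% in resistant libraries. The resistant libraries had the higher share in both clones. The JUN genes summed to 34.1 and 28.7 scaled TPM in parental and 30.9 and 24.9 in resistant C17.2 cells, which overlapped, and to 49.4 and 44.2 in parental and 45.1 and 30.2 in resistant C3.2 cells, which overlapped too. The shares are of RNA and were not tested.

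EGR1 (ENSG00000120738.8, chr5:138465479-138469303, forward strand, 2 exons) had the largest difference of the 10 genes in log2(scaled TPM + 1) in C17.2. The fold of the means was larger for FOSB (6.06), as was its difference with a pseudocount of 0.1, at 2.38 against at most 2.13 for EGR1 under any alternative. It was at 2.66 and 3.06 scaled TPM in parental C17.2 cells and at 13.1 and 12.6 in resistant ones, and at 12.4 and 11.5 in parental C3.2 cells and 17.0 and 14.8 in resistant ones. The 2 parental C17.2 libraries stood alone at the low end, and resistant C17.2 cells lay just above parental C3.2 cells. EGR1 rose 4.51-fold in C17.2, a difference of 1.85 (standard error 0.0885, adjusted p = 6.81e-05 by limma), and 1.32-fold in C3.2, a difference of 0.38 (standard error 0.0885, adjusted p = 0.0436 by limma). The C3.2 call was lost without any single one of the 8 libraries (adjusted p = 0.0519 to 0.197) and under 3 of 8 changes in processing. The changes of the 2 clones differed by 1.47 (95% confidence interval 1.16 to 1.77, adjusted p = 0.00205 by limma), and this call held under all 15 alternatives (1.37 to 1.73).

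KLF6 (ENSG00000067082.15, chr10:3775996-3785281, reverse strand, 4 exons) encodes a zinc finger factor of the Krüppel-like family. It was at 19.6 and 18.6 scaled TPM in parental and 18.9 and 18.2 in resistant C17.2 cells, and at 15.1 and 15.8 in parental and 20.9 and 23.1 in resistant C3.2 cells. The groups overlapped in C17.2 and lay apart in C3.2. KLF6 rose by 0.48 in C3.2 (standard error 0.0642, adjusted p = 0.00833 by limma), while its difference in C17.2 was -0.04 (95% confidence interval -0.19 to 0.12) and turned positive, at 0.11, with TPM as deposited. The changes differed between the clones by -0.52 (adjusted p = 0.0198 by limma), a call lost with TPM as deposited (adjusted p = 0.0562) and without any 1 of the 4 C17.2 libraries or of the 2 parental C3.2 libraries (0.0595 to 0.0862). The call within C3.2 was lost with that clone fitted alone (0.0917) and without parental replicate 1 (0.0752) or parental replicate 2 (0.0553).

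IER2 (chr19:13150411-13154911, forward strand, 2 exons), a nuclear protein gene of the same early class, was at 27.3 and 23.7 scaled TPM in parental and 27.5 and 23.1 in resistant C17.2 cells, and at 32.7 and 33.2 in parental and 41.9 and 34.5 in resistant C3.2 cells. It was called in neither clone, with 95% confidence intervals of -0.31 to 0.28 in C17.2 and -0.095 to 0.49 in C3.2. The C17.2 groups overlapped, and that difference, -0.013, became 0.14 with TPM as deposited. IER2, DUSP1 and DUSP6 each overlap at least 1 long non-coding RNA gene in the annotation, so reads of the partners may be shared if strand was not used.

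DUSP1 (ENSG00000120129.6, chr5:172768096-172771195, reverse strand, 4 exons) moved in opposite directions in the clones. It was at 6.66 and 6.54 scaled TPM in parental C17.2 cells and at 9.39 and 9.64 in resistant ones, and at 11.1 and 11.0 in parental C3.2 cells and at 8.31 and 7.91 in resistant ones. No 2 groups overlapped, and the resistant libraries of both clones lay between the 2 parents. DUSP1 rose by 0.47 in C17.2 (standard error 0.0513, adjusted p = 0.00143 by limma) and fell by 0.41 in C3.2 (standard error 0.0513, adjusted p = 0.00712 by limma). The difference between these changes was 0.87 (95% confidence interval 0.70 to 1.05, adjusted p = 0.00187 by limma), a call that held under all 15 alternatives (0.84 to 0.97). The fall in C3.2 was no longer called with that clone fitted alone (adjusted p = 0.0861) or without parental replicate 1 (0.0624) or parental replicate 2 (0.0549).

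DUSP6 (ENSG00000139318.8, chr12:89347235-89352501, reverse strand, 3 exons) is the classical transcriptional readout of ERK activity. It was at 30.0 and 27.1 scaled TPM in parental and 26.9 and 24.3 in resistant C17.2 cells, and at 22.6 and 23.1 in parental and 19.5 and 22.1 in resistant C3.2 cells. Resistant libraries lay just below parental ones in both clones, but the differences of -0.15 (95% confidence interval -0.35 to 0.051, adjusted p = 0.236 by limma) and -0.13 (95% confidence interval -0.33 to 0.072, adjusted p = 0.363 by limma) were not called. With TPM as deposited the C17.2 difference was 0.0036. DUSP6 was therefore called in neither clone, and ERK activity was not measured here.

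Between the clones, the change from parent to resistant cells differed by test for 3 of the 10 genes, EGR1 and DUSP1 with the higher change in C17.2 and KLF6 with the lower, against 9.90% of all tested genes (4.91% higher and 4.99% lower). The median of this difference was 0.15 over the 10 genes and 0.0022 over all tested genes.

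The parental cells of the clones already differed in these genes. Of the 10 genes, 6 were called between parental C17.2 and parental C3.2 cells, 2 higher and 4 lower in C17.2, against 22.5% of all tested genes (10.5% higher and 12.0% lower), and the median difference was -0.48 over the 10 genes and 0.0024 over all. None of the 10 overlapped between the parents, with 8 lower and 2 higher in C17.2, against 66.1% of all tested genes that did not overlap. EGR1 was lower in C17.2, by a difference of -1.75 in log2(scaled TPM + 1) (standard error 0.0885, adjusted p = 0.000175 by limma), and DUSP1 differed by -0.67 (standard error 0.0513, adjusted p = 0.000641 by limma). Both calls held under all 15 alternatives. FOS (-0.65, adjusted p = 0.0419 by limma) and JUN (-0.49, adjusted p = 0.0245) were lower and DUSP6 (0.31, adjusted p = 0.0441) and KLF6 (0.29, adjusted p = 0.0232) higher in C17.2. These 4 calls were lost under 11, 5, 8 and 4 of the 15 alternatives, in the same order. Each within-clone change is measured from these unequal starting levels. The labels number the libraries of the 2 clones in separate ranges, so a difference between clones and one between these sets of libraries cannot be told apart.

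**Figure D4:**
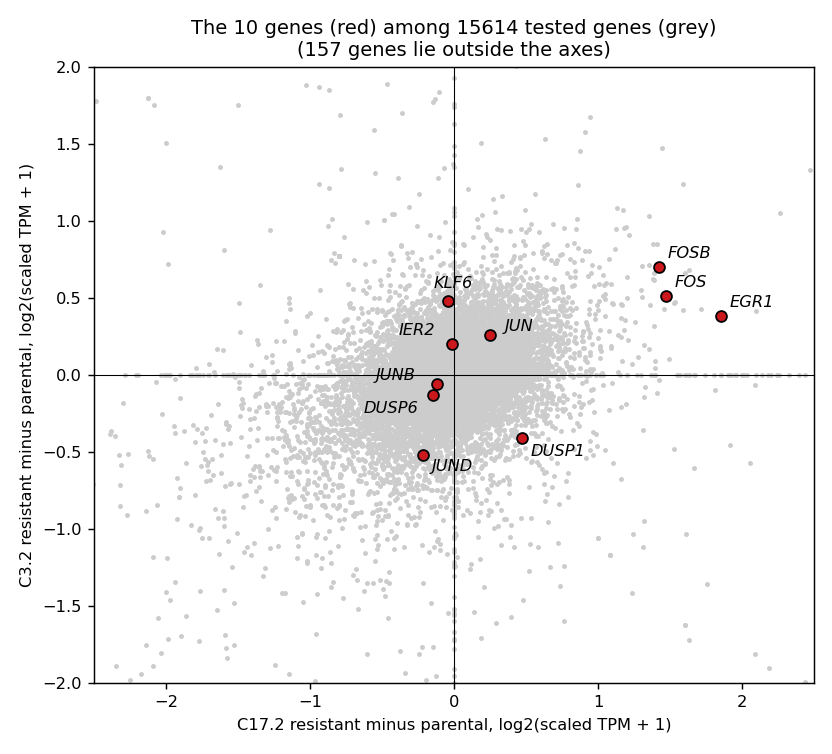
Each grey point is 1 of the 15614 tested genes, with the difference between resistant and parental cells in C17.2 on the horizontal axis and in C3.2 on the vertical axis, both in log2(scaled TPM + 1). The 10 genes are red, 157 genes lie outside the axes, and FOS, FOSB and EGR1 lie far to the right (1.47, 1.42 and 1.85) at smaller values on the vertical axis (0.51, 0.70 and 0.38).

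Other genes of the pathway were read from 7 lists, in which a gene is said to rise or fall where it was called, and SRF, ZFP36L1 and the other ZFP36 genes belong to 2 lists each. The counts of each list stand against 27.3% of all tested genes called in C17.2 (13.4% higher and 13.9% lower) and 11.4% in C3.2 (4.46% higher and 6.90% lower). Among the AP-1 partners, the other proteins that can bind FOS or JUN, 10 of 13 were tested. In C17.2, 0 rose and 4 fell, with a median of -0.24 against 0.00 over all tested genes, and in C3.2, 1 rose and 2 fell, with a median of -0.13, against 27.3% and 11.4% of all tested genes called. JDP2, which encodes a repressor that pairs with JUN proteins, went from 7.61 and 7.29 to 1.08 and 0.977 scaled TPM in C17.2, a difference of -2.06 (adjusted p = 8.82e-05 by limma), and from 2.16 and 2.66 to 0.81 and 0.982 in C3.2 (-0.84, adjusted p = 0.00712 by limma). ATF3, a stress-induced member that can repress, went from 6.39 and 8.03 to 1.91 and 1.49 in C17.2 (-1.60, adjusted p = 0.00039 by limma) and from 3.85 and 3.89 to 1.67 and 1.61 in C3.2 (-0.88, adjusted p = 0.00931 by limma). The 2 genes thus fell in both clones, and a link of these falls to the levels of the FOS and JUN genes was not tested. The JDP2 call in C3.2 was lost with that clone fitted alone, and the ATF3 call there was lost under 3 of 16 alternatives. FOSL2 was the 1 partner that rose in C3.2 (0.26, adjusted p = 0.0377 by limma), a call lost under 11 of 16 alternatives.

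The list of other primary response genes had 21 of 32 members tested, of which 8 rose and 5 fell in C17.2 (median -0.14) and 5 rose and 1 fell in C3.2 (median 0.085), against 27.3% and 11.4% of all tested genes called. CD69, a lymphocyte activation antigen, had the largest rise in log2(scaled TPM + 1) in both clones. It went from 3.37 and 2.51 to 17.4 and 18.1 scaled TPM in C17.2 (2.26, adjusted p = 5.96e-05 by limma) and from 4.53 and 4.72 to 10.4 and 11.0 in C3.2 (1.05, adjusted p = 0.00345 by limma), and these changes differed by 1.21 (adjusted p = 0.00662 by limma). The C3.2 call of CD69 was lost with that clone fitted alone. The next rise in C17.2 was of SGK1, a kinase (0.75, adjusted p = 0.00027 by limma). The largest falls were of PPP1R15A, which directs dephosphorylation of eIF2 alpha (-1.26, adjusted p = 0.000436), and of TNFAIP3, an inhibitor of NF-kappaB signaling (-0.85, adjusted p = 0.00132). SGK1 and PPP1R15A were not called in C3.2, and their changes differed between the clones by 0.77 (adjusted p = 0.00313 by limma) and -1.35 (adjusted p = 0.00387 by limma). PPP1R15A was at 26.9 and 25.4 scaled TPM in parental C17.2 cells and between 8.92 and 11.3 in the other 6 libraries. In C3.2, the second largest rise in log2(scaled TPM + 1) was of IER3, an early gene for a survival protein, which went from 1.54 and 1.65 to 4.17 and 3.82 scaled TPM (0.94, adjusted p = 0.00171 by limma). Under the alternatives the C3.2 difference reached 1.27 for IER3 and at most 1.19 for CD69, so their order depended on the processing. The IER3 call was lost under 1 of 16 alternatives. In the same clone ZFP36L1, an mRNA decay factor, fell by 0.35 (adjusted p = 0.0164 by limma), a call lost under 5 of 16 alternatives. The list therefore moved in both directions in C17.2.

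**Figure D5:**
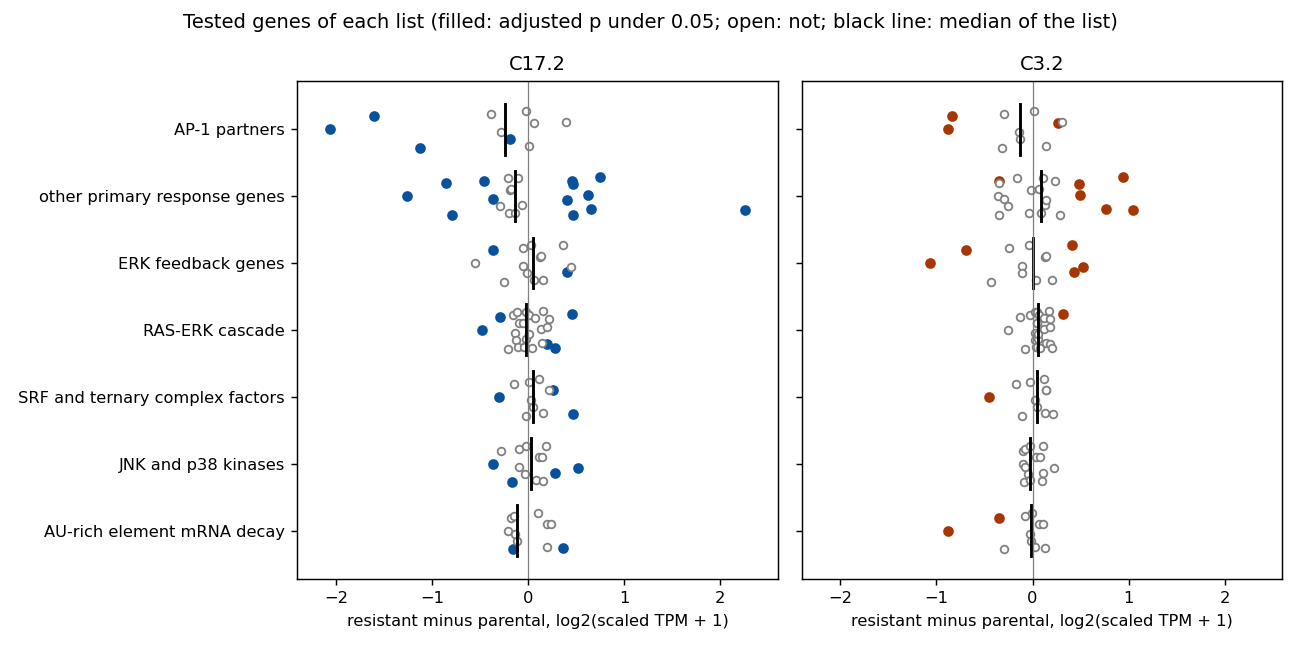
Each point is a tested gene of the 7 lists on the vertical axis, at its difference between resistant and parental cells in log2(scaled TPM + 1), in C17.2 on the left and C3.2 on the right. Filled points have an adjusted p under 0.05 and black lines are list medians, which lie between -0.24 and 0.085, while JDP2 and ATF3 form the far left of the AP-1 partners in C17.2 (-2.06 and -1.60).

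Among the ERK feedback genes, 14 of 23 were tested, and 1 rose and 1 fell in C17.2 (median 0.047) while 3 rose and 2 fell in C3.2 (median 0.0033), against 27.3% and 11.4% of all tested genes called. SPRY2, which encodes a Sprouty inhibitor of receptor signaling to RAS, rose in both, from 18.6 and 19.0 to 25.6 and 25.1 scaled TPM in C17.2 (0.41, adjusted p = 0.00262 by limma) and from 16.6 and 16.7 to 21.8 and 23.8 in C3.2 (0.43, adjusted p = 0.007 by limma). SPRED2, of the related Spred inhibitors, fell in C17.2 (-0.36, adjusted p = 0.0049). In C3.2, SPRY4 rose (0.53, adjusted p = 0.0152), and SPRY1 (-0.69, adjusted p = 0.00801) and the ETS factor gene ETV1 (-1.07, adjusted p = 0.0157) fell. ETV1 was low, at 1.07 and 1.8 scaled TPM in parental and 0.195 and 0.108 in resistant C3.2 cells. The C3.2 calls of SPRY2, SPRY4, SPRY1 and ETV1 were lost under 3, 3, 2 and 3 of 16 alternatives, in this order, and the C17.2 call of SPRED2 under 1. Sprouty genes thus moved in both directions within 1 clone, and the changes of SPRY1 and SPRY4 differed between the clones by 0.82 (adjusted p = 0.0144) and -0.55 (adjusted p = 0.0415), all by limma.

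Genes that act upstream of the immediate early genes were read in the same way. All 25 genes of the RAS-ERK cascade were tested, of which 3 rose and 2 fell in C17.2 (median -0.017) and 1 rose and 0 fell in C3.2 (median 0.053), against 27.3% and 11.4% of all tested genes called. RPS6KA2, an ERK-activated kinase gene (0.46, adjusted p = 0.0286 by limma), and PTPN11, which encodes the phosphatase SHP2 (0.28, adjusted p = 0.0235), had the largest rises in C17.2, and KSR1, a scaffold gene (-0.48, adjusted p = 0.0118), and BRAF (-0.29, adjusted p = 0.0145) the falls, calls lost under 5, 6, 3 and 4 of 16 alternatives in this order. RASA2, a RAS GTPase-activating protein gene, was the 1 called in C3.2 (0.32, adjusted p = 0.04), a call lost under 9 of 16 alternatives. Of 11 genes for SRF and the factors that act with it, 2 rose and 1 fell in C17.2 (median 0.056) and 0 rose and 1 fell in C3.2 (median 0.044), against 27.3% and 11.4% of all tested genes called. SRF itself, which binds CArG boxes, went from 11.0 and 10.8 to 15.3 and 15.6 scaled TPM in C17.2 (0.47, adjusted p = 0.000994 by limma). In C3.2 it went from 11.9 and 12.2 to 13.5 and 13, which was not called (adjusted p = 0.143), and the changes differed by 0.34 (adjusted p = 0.0267 by limma). ELK1, an ERK-regulated partner of SRF, rose in C17.2 (0.26, adjusted p = 0.0155), and MRTFA, an actin-regulated partner of SRF, fell in both clones (-0.30, adjusted p = 0.00566, and -0.45, adjusted p = 0.00412, by limma). The ELK1 call was lost under 3 of 16 alternatives, and the MRTFA call under 1 in either clone.

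Of 14 JNK and p38 kinase genes, 2 rose and 2 fell in C17.2 (median 0.031) and 0 were called in C3.2 by limma, with 1 at an unadjusted p under 0.05 (median -0.026), against 27.3% and 11.4% of all tested genes called. MAPK11, a p38 gene (0.52, adjusted p = 0.0149 by limma), and MAP3K5, which encodes the stress kinase ASK1 (0.28, adjusted p = 0.0167 by limma), rose in C17.2. MAP2K6, a p38-activating kinase gene (-0.36, adjusted p = 0.043 by limma), and MAP3K1 (-0.17, adjusted p = 0.0492 by limma) fell there. The calls of MAP3K5, MAP2K6 and MAP3K1 were lost under 4, 10 and 12 of 16 alternatives, in this order. Of 11 genes for the decay of mRNAs with AU-rich elements, a class that includes FOS, 1 rose and 1 fell in C17.2 (median -0.11) and 0 rose and 2 fell in C3.2 (median -0.012), against 27.3% and 11.4% of all tested genes called. ELAVL1, which encodes a stabilizing protein, rose in C17.2 (0.36, adjusted p = 0.00716 by limma), and CNOT1, the scaffold of the CCR4-NOT deadenylase, fell (-0.16, adjusted p = 0.0266 by limma), a call lost under 8 of 16 alternatives. HNRNPD, which encodes the decay factor AUF1, went from 166 and 152 to 98.5 and 75.3 scaled TPM in C3.2 (-0.88, adjusted p = 0.00885 by limma), and the changes differed between the clones by 1.11 (adjusted p = 0.013 by limma). The C3.2 call of HNRNPD was lost under 3 of 16 alternatives, and the C17.2 call of ELAVL1 under 1. There were 36 called within-clone results of CTCF and of the genes named as the largest changes of each list. All 36 kept their direction under every alternative and 10 stayed past the threshold under every one. KLF10 and GADD45B, described at the end, are not among them.

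The genes whose pattern over the 8 libraries was nearest to a member were found by the root mean square difference of centered log2(scaled TPM + 1), among 11209 protein-coding genes. For FOS, whose own spread by this measure was 0.577, they were PLCG1 (0.193), a phospholipase gene of receptor signaling, and HSF4 (0.201). NQO1 (0.137) and BPGM (0.157) were nearest to FOSB, against its own spread of 0.569. EGR1, with a spread of 0.841, had the least close neighbors, SDF2L1 (0.254) and CALR (0.327), both genes of the endoplasmic reticulum. The nearest to DUSP1, with a spread of 0.248, were FDPS (0.0423) and IDI1 (0.0539), both of the isoprenoid pathway that leads to cholesterol. JUN had MEGF6 (0.052) and TOMM40 (0.0734) against a spread of 0.283, DUSP6 had C1S (0.0427) and HDLBP (0.0536) and KLF6 had ARID1B (0.0595) and FMO4 (0.0646), each against a spread of 0.178. None of these neighbors was another member. With 8 libraries in 4 groups many genes can share a pattern, and the measure is a description.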

How the data were processed

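RNA-seq of 8 libraries was analyzed, with 2 libraries in each of 4 groups. The authors removed ribosomal RNA, trimmed reads (TrimGalore 0.6.3), aligned them to GRCh38.p13 (STAR 2.7.9a) and quantified Gencode release 31 genes (RSEM 1.3.1), and they deposited TPM. Labels give single-end and methods paired-end reads, and strand-specific counting is not given in the sources used here. Without counts, the limma-voom fit could not be repeated.

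The test took all genes that reached 1 TPM in any library (15614). Scaling factors were trimmed means of log2 ratios (30% of ratios and 5% of means dropped at both ends). A single limma 3.58.1 model of the 4 groups in R 4.3.3, with an intensity trend and no covariate, was fitted to log2(scaled TPM + 1), with Benjamini-Hochberg adjustment over all genes and a threshold of 0.05. The 4 contrasts compared resistant with parental cells within either clone, these changes with each other, and the parents. Alternatives were unscaled TPM, quantile normalization, TPM rescaled over protein-coding genes, a pseudocount of 0.1, 2 other filters, each clone alone, no trend, each library left out and, added after seeing the data, the title number as a block across clones.

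Members and gene lists were chosen with earlier results of these data known. All 10 members were named, CTCF, the 2 largest called rises and falls of each list per clone, and the 2 nearest patterns of each member called in any contrast. Positions came from Gencode on GRCh38, matched by gene identifier, and upstream sequences from RefSeq, where all 10 symbols matched. In a simulation of 15614 genes, the spread was set by level alone and 200 genes were shifted by 1 in log2 in resistant C17.2 libraries. Of the shifted genes 100% were recovered, and 3.85% of calls were false. Far fewer genes changed there than were called in the data, and smaller changes and genes of unusual spread were absent. It therefore checks that the code runs and does not give the power or error rate of the tests above. Tables were made in pandas 2.3.3 under Python 3.11.15, and plots in matplotlib 3.10.9.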

Additional observations from a re-analysis of the deposited data

Results flagged for a closer look

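In 3 of the 10 genes the change from parental to resistant cells differed between C17.2 and C3.2 by a test of the difference itself (limma, all 15614 genes, against 9.90% of all tested genes). The C17.2 change exceeded the C3.2 change by 1.47 for EGR1 (adjusted p = 0.00205) and by 0.87 for DUSP1 (adjusted p = 0.00187), and for KLF6 the difference was -0.52 (adjusted p = 0.0198). Resistant libraries were above the parental ones in both clones for EGR1, and on opposite sides of them for DUSP1. KLF6 groups overlapped in C17.2 and lay apart in C3.2. The clones also differed in the mutation each carried, in their parental levels of the 3 genes and in the range of numbers the labels give their libraries, and these cannot be told apart.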

How the results depend on the processing

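The 4 calls in C17.2 (FOS, FOSB, EGR1 and DUSP1) held under all 16 alternatives, where differences were 1.20 to 1.75 for FOS, 1.40 to 2.38 for FOSB, 1.77 to 2.13 for EGR1 and 0.45 to 0.62 for DUSP1. Calls in C3.2 were less stable: the count of 4 became 2 with no filter (DUSP1 and KLF6), 0 with the clone fitted alone (5 at an unadjusted p under 0.05), and 0 to 3 without 1 library, being 0 without C3.2 parental replicate 1, 1 without parental replicate 2 and 2 without resistant replicate 2 or without any 1 C17.2 library. Of the 6 calls between the parents, 3 were left with no filter, and leaving out 1 library gave 2 to 7, with 2 without C17.2 parental replicate 2 or either parental library of C3.2. For the difference between clones, 2 to 3 genes were called. TPM as deposited moved the median of all genes by 0.13 in C17.2, 0.053 in C3.2 and 0.14 between the parents, and no called result of the 10 genes changed sign in any of 620 values (526 kept direction and side, 61 lost the threshold, 6 gained it and 27 of uncalled results changed sign). Over all genes, the share of calls that were higher moved from 49.6% to 64.0% with TPM as deposited in the difference between clones, from 46.8% to 81.0% between the parents (64.3% over protein-coding genes), from 49.1% to 64.5% over protein-coding genes in C17.2, and from 39.3% to 50.8% by quantile normalization in C3.2. Calls over all genes went from 1773 in C3.2 to 1173 with no filter, 74 with the clone alone and 325 to 1785 without 1 library, from 4261 in C17.2 to 2374 to 4551, from 1546 in the difference between clones to 541 to 1747 and from 3515 between the parents to 1550 to 3798 without 1 library. With TPM as deposited the sign turned in C17.2 for JUNB (0.022), IER2 (0.14), DUSP6 (0.0036) and KLF6 (0.11), in C3.2 for JUNB (0.0041), and in the difference between clones for JUN (0.058), JUNB (0.018) and DUSP6 (0.071). Rescaling over protein-coding genes turned IER2 (0.069) and KLF6 (0.041) in C17.2 and JUNB (0.038) in C3.2, and for the JUN difference between clones so did quantile normalization (0.011) and a pseudocount of 0.1 (0.056). Leaving out 1 library gave -0.29 to 0.043 for JUNB and -0.13 to 0.11 for IER2 in C17.2, -0.20 to 0.083 for JUNB in C3.2, and, for the difference between clones, -0.086 to 0.077 for JUN, -0.23 to 0.10 for JUNB, -0.071 to 0.67 for JUND and -0.11 to 0.066 for DUSP6. The cause of these shifts was not tested beyond what each alternative changes. Parental and resistant libraries of a clone share no number in their titles, but each number occurs once in both clones. With it as a replicate block, an alternative chosen after seeing the data, 2 genes were called for the difference between clones (KLF6 -0.52, adjusted p = 0.0794 by limma) and 4 between the parents (JUNB, EGR1, IER2 and DUSP1), and 600 and 2473 over all genes. The deviations of same-numbered libraries correlated by -0.114 in parental and 0.0186 in resistant cells. Each value rests on 1 difference between libraries per clone, so whether same-numbered libraries share a culture or a preparation cannot be told. TPM keep no depth, so the counting error of low genes such as FOSB and JUN is unknown.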

Other observations

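Chosen after its values were seen, KLF10, a TGF-beta-induced relative of KLF6, moved in opposite directions in the clones, from 5.23 and 6.21 to 3.85 and 3.89 scaled TPM in C17.2 (-0.46, adjusted p = 0.0119 by limma) and from 3.00 and 3.05 to 4.40 and 4.88 in C3.2 (0.49, adjusted p = 0.0225 by limma), and the difference between these changes was -0.95 (adjusted p = 0.00889 by limma). GADD45B, a stress-induced early gene chosen in the same way, fell from 9.13 and 9.12 to 4.89 and 4.80 scaled TPM in C17.2 (-0.79, adjusted p = 0.000631 by limma) and was at 6.95 and 7.85 in parental and 6.94 and 7.41 in resistant C3.2 cells.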
